A study of Mus musculus with 4 samples.

Results

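The transcription factors that direct T cell fate, with the IL-2 receptor alpha chain Il2ra (CD25) as the surface marker of regulatory T cells (Treg), were followed in bulk RNA-seq of mouse J558 allografts. The 9 genes, of 24421 in the count tables, were set by name for their known roles, with earlier results of these data known: Foxp3, Ikzf2, Il2ra, Tbx21, Eomes, Gata3, Bcl6, Tcf7 and Tox. J558 is a BALB/c plasmacytoma line, that is, an antibody-secreting tumor of the B lymphocyte lineage. It was grown as an allograft in female BALB/c mice, so the host kept its own immune system. The methods give a site, under the skin of the right flank, for the antitumor efficacy studies but not for the tumors sequenced here. TAK-931 blocks CDC7, a kinase needed to fire replication origins. Mice received either the vehicle alone (0.5% methylcellulose) or 60 mg/kg of TAK-931 by mouth, once a day, and tumors were taken on day 6. Each group had 2 libraries, named Vehicle-1, Vehicle-2, TAK-931-1 and TAK-931-2, and each library held the RNA of the whole tumor. The mice were of the strain BALB/cAJcl and 4 weeks of age, as stated in the methods for the animals of all experiments together. The study itself used the tumors Vehicle-1 and TAK-931-1 as its representative samples. The question was whether the RNA of these fate factors differed between vehicle-treated and TAK-931-treated tumors.

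A T cell in a tumor can take several fates, and each is held in place by a small number of nuclear factors. FOXP3, often with the Ikaros family member Helios (Ikzf2) and high CD25, defines regulatory T cells, which restrain other T cells and take up IL-2. T-bet (Tbx21) and eomesodermin (Eomes) drive type 1 helper cells, cytotoxic CD8+ T cells and natural killer (NK) cells; GATA3 drives type 2 helper cells; BCL6 drives follicular helper cells; TCF-1 (Tcf7) keeps naive, memory and stem-like T cells; and TOX accompanies the exhausted state of T cells under lasting antigen. None of the factors is exclusive to T cells, since Bcl6 is also used by germinal center B cells and macrophages, Gata3 by innate lymphoid cells and epithelium, and Eomes and Tbx21 by NK cells.

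The promoters of Tbx21, Eomes and Foxp3 are printed here. Tbx21 had the largest fold change of the 9 genes with all libraries. Eomes had the highest level per length in TAK-931-1, and Foxp3 defines the Treg fate. Each run is the 160 bases before the first annotated start, read 5′ to 3′ on the gene's own strand, from RefSeq on GRCm38.p6. Tbx21 lies at chr11:97115332-97115491 on the minus strand, Eomes at chr9:118478029-118478188 on the plus strand and Foxp3 at chrX:7579516-7579675 on the plus strand. Capitals mark a match to the core of the interferon-stimulated response element, GAAANNGAA, which was found in the Eomes stretch 154 bases before the start.
Tbx21: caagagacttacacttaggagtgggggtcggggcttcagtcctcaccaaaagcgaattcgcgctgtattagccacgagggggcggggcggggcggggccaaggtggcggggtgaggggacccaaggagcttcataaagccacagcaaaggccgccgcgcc
Eomes: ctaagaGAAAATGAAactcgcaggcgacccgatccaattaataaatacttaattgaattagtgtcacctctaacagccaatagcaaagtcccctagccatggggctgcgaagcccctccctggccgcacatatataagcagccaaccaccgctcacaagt
Foxp3: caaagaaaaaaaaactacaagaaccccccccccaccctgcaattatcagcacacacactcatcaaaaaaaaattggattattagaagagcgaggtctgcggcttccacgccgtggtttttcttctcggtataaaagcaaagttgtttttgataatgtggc

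The motifs named in this paragraph were searched on both strands in 300-base windows, from 250 bases before to 50 bases after each start, of which 10 belonged to 7 of the 9 genes. Ikzf2 and Tox were not in the promoter table used. The interferon core GAAANNGAA was in 8.6% of all 32851 windows and in that of Eomes. The GATA motif AGATAA was in 11.2% of all windows and, among these genes, in that of the second start of Foxp3, 47 bases before it. The window of the second start of Tcf7 held the forkhead motif GTAAACA, which 3.6% of all windows held, and the ETS motif ACCGGAAG, which 2.3% held. The T-box motif AGGTGTGA, in 1.3% of all windows, and the TCF/LEF motif CTTTGAA, in 5.1%, were not found in these letters in any of the 10 windows. A match describes the sequence and was not tested as a binding site.

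Total counts ran from 16487902 to 19589339, and 15216 to 16270 genes had a count in a library. Only 17.9% to 23.9% of the counts between 1 and 20 were odd, so the mates of a read pair appear to have been counted separately, and all counting intervals below are exact 95% intervals on counts divided by 2, which cover counting error only. The vehicle libraries were close to each other, with a biological coefficient of variation of 0.132, against 0.579 between the TAK-931 libraries. TAK-931-1 stood apart: its summed level of the CD3 genes (Cd3d, Cd3e and Cd3g, which form the signaling part of the T cell receptor) was 441 CPM (counts relative to library size, scaled by TMM), against 24.9 in TAK-931-2, 5.22 in Vehicle-1 and 1.68 in Vehicle-2. Its 9 macrophage markers summed to 9140 CPM, against 1630, 623 and 525 in the same order. The plasmacytoma marker Trap1a was at 356 CPM in TAK-931-1 and between 1100 and 1240 CPM in the other libraries. Values are therefore given for each library, and the fitted changes of the 9 genes and the medians of the main gene lists also without TAK-931-1. In that fit the median over all genes was -0.03. The share of all genes that were higher at an unadjusted p under 0.05, 11.6% with all libraries, was 18.4% without TAK-931-1, 31.1% without TAK-931-2, 6.70% without Vehicle-1 and 6.73% without Vehicle-2, and list counts with a library left out are to be read against these.

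All 9 genes were higher in both TAK-931 libraries than in both vehicle libraries, which 30.0% of the 13669 tested genes also were. By fitted change Tbx21 differed most and Bcl6 least, although without Vehicle-2 Gata3 was above Tbx21 (log2 fold change 9.80 against 6.62). The 9 genes were highest in TAK-931-1, as 41.2% of all tested genes were. By edgeR's quasi-likelihood test all 9 had an unadjusted p under 0.05 (background 11.6% of all genes higher and 6.55% lower), but none passed the Benjamini-Hochberg adjustment over all genes. The edgeR test called 0 genes of any kind (0.00%), with 2475 genes (18.1%) at an unadjusted p under 0.05 and a lowest adjusted p of 0.275, which was also the adjusted p of each of the 9. DESeq2 called 1411 genes, 9.21% of all tested genes being called higher, and among them all 9. Limma-voom called 0 genes with 1956 at an unadjusted p under 0.05, and of the 9 only Tcf7 was among these. Of the 9 genes, 5 (Foxp3, Ikzf2, Il2ra, Tbx21 and Gata3) passed the filter on low counts only through the TAK-931 libraries, so a difference was a condition of their being tested. In a bulk tumor, fewer cells of a type and less RNA per cell cannot be told apart, and this holds for every value below.

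**Figure D1:**
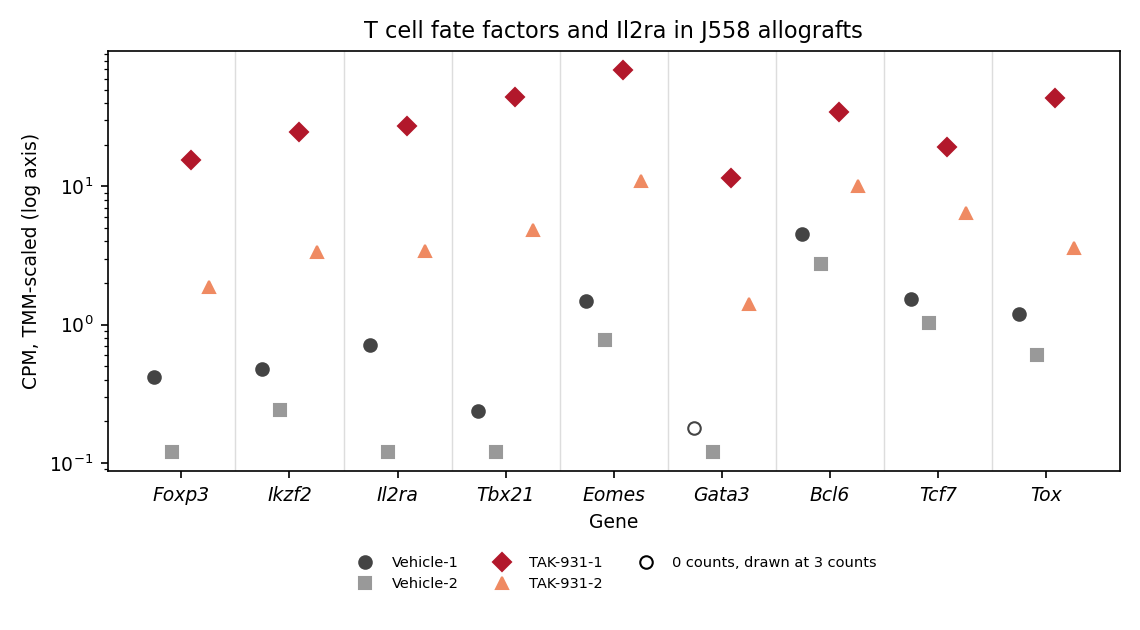
Level of the 9 genes in each library in TMM-scaled CPM on a log axis, 1 point per library; the open circle is a library with 0 counts, drawn at the level of 3 counts. Every gene lay highest in TAK-931-1 and second in TAK-931-2, and the vehicle libraries lay lowest, from 0 CPM for Gata3 to 4.51 CPM for Bcl6.

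The Treg genes were close to absent in vehicle-treated tumors and present in both TAK-931-treated ones. Foxp3, the factor that defines Treg (chrX:7579676-7595243, plus strand), had 7 and 2 counts in Vehicle-1 and Vehicle-2 and 294 and 32 counts in TAK-931-1 and TAK-931-2. In TMM-scaled terms these were 0.415, 0.12, 15.5 and 1.87 CPM. The level in TAK-931-1 was 57.7 times that of the pooled vehicle libraries (95% interval 23.2 to 195), and that in TAK-931-2 was 6.96 times (2.35 to 26.1). The groups did not overlap, but the TAK-931 libraries differed from each other by 8.3-fold (4.94 to 14.9). The fitted log2 fold change was 4.98 ± 1.43 (SE, n = 2 per group, edgeR, unadjusted p = 0.0223, adjusted p = 0.275), and it was 2.76 without TAK-931-1. A fit without TAK-931-1 takes its spread from the vehicle pair alone. Its fold changes are therefore given gene by gene without a p. The exons of Foxp3 overlap those of Ccdc22 on the opposite strand, which had 548, 446, 397 and 388 counts in the same order of libraries, and those of Ppp1r3fos on the same strand, which had 4, 5, 0 and 10. The strand setting of the counting is not given in the sources used here. Ccdc22 was lower in both TAK-931 libraries than in both vehicle libraries, and the part of shared reads in the counts of Foxp3 was not tested.

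Ikzf2, which encodes Helios (chr1:69531210-69685960, minus strand), had 8, 4, 472 and 57 counts in Vehicle-1, Vehicle-2, TAK-931-1 and TAK-931-2, or 0.474, 0.24, 24.9 and 3.33 CPM. Its log2 fold change was 5.27 ± 1.29 (edgeR, unadjusted p = 0.0129), and 3.19 without TAK-931-1. Il2ra, the high-affinity IL-2 receptor subunit that Treg carry at rest and effector T cells gain on activation (chr2:11642792-11693194, plus strand), had 12, 2, 516 and 58 counts, or 0.712, 0.12, 27.2 and 3.38 CPM. The vehicle libraries differed more from each other for Il2ra than for Ikzf2, although both rested on few counts. The log2 fold change of Il2ra was 5.18 ± 1.49 (edgeR, unadjusted p = 0.0227), 3.0 without TAK-931-1, 6.90 without Vehicle-1 and 4.38 without Vehicle-2. Differences in fold change among the 3 Treg genes were not tested.

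Ratios between genes of the same library do not depend on its scaling, and they were formed per length, as RPKM (CPM per kilobase of exon). Ikzf2 stood to Foxp3 at 0.477, 0.834, 0.669 and 0.743 in Vehicle-1, Vehicle-2, TAK-931-1 and TAK-931-2, and Il2ra to Foxp3 at 1.52, 0.887, 1.56 and 1.61. The 95% interval in TAK-931-1 was 0.542 to 0.828 for Ikzf2 and 1.27 to 1.92 for Il2ra, and the value of TAK-931-2 lay inside each, so the make-up of the Treg genes did not differ between these libraries beyond counting error. In vehicle the intervals were wide, for Ikzf2 0.0851 to 2.84 in Vehicle-1 and 0.0434 to 49.2 in Vehicle-2. Foxp3 stood to Cd4, the helper and Treg coreceptor, at 0.184, 0.0272, 0.286 and 0.191. Both TAK-931 values were above both vehicle values, by 0.191 against 0.184 at the nearest, and the 95% interval of TAK-931-2 (0.103 to 0.334) held the value of Vehicle-1. Foxp3 stood to Cd8a, the cytotoxic T cell coreceptor, at 0.192, 0.797, 0.0392 and 0.109. Both TAK-931 libraries were below both vehicle libraries, and the intervals of TAK-931-1 (0.033 to 0.0463) and TAK-931-2 (0.0603 to 0.184) did not overlap each other. The vehicle intervals, 0.0413 to 0.641 in Vehicle-1 and 0.0102 to 62.5 in Vehicle-2, were wide and overlapped both TAK-931 intervals, and the difference between the groups was not tested.

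Surface and effector genes of Treg were taken as a fixed list of 21, of which 16 were tested. Of these, 6 were higher at an unadjusted p under 0.05 (edgeR; 11.6% of all tested genes) and none lower, with a median log2 fold change of 1.90 against 0.02 over all tested genes. Without TAK-931-1 the median was 0.58, with 3 genes higher and 1 lower at that p (18.4% of all genes higher). The number higher was 3 without Vehicle-1 (6.70% of all genes) and 12, with 3 lower, without TAK-931-2 (31.1% of all genes). Il2rg, the shared gamma chain of the receptors for IL-2 and related cytokines, was at 22.4, 10.1, 262 and 60.2 CPM in Vehicle-1, Vehicle-2, TAK-931-1 and TAK-931-2. Entpd1 (CD39), which removes extracellular ATP, was already at 338 and 353 CPM in vehicle and at 249 and 280 CPM with TAK-931 (edgeR, unadjusted p = 0.159). Cd81, a widely expressed tetraspanin, was at 224, 223, 163 and 247 CPM. The 2 most abundant genes of this list, Entpd1 and Cd81, were thus high in the tumors that held almost no Foxp3.

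Tbx21 and Eomes, the T-box factors of cytotoxic and type 1 responses, were the genes with the lowest p of the 9. Tbx21 (chr11:97098007-97115331, minus strand) had 4, 2, 844 and 83 counts in Vehicle-1, Vehicle-2, TAK-931-1 and TAK-931-2, or 0.237, 0.12, 44.5 and 4.84 CPM. This was 249 times the pooled vehicle level in TAK-931-1 (95% interval 84.5 to 1210) and 27.1 times in TAK-931-2 (8.65 to 137). Its log2 fold change was 7.05 ± 1.49 (SE, n = 2 per group, edgeR, unadjusted p = 0.00749, adjusted p = 0.275), and 4.70 without TAK-931-1. Eomes (chr9:118478189-118486132, plus strand), whose promoter is printed above, had 25, 13, 1320 and 188 counts, or 1.48, 0.779, 69.5 and 11 CPM. Its log2 fold change was 5.14 ± 1.14 (edgeR, unadjusted p = 0.00886), and 3.27 without TAK-931-1. Per length, Eomes stood to Tbx21 at 4.29 and 4.47 in the vehicle libraries, 1.07 in TAK-931-1 and 1.56 in TAK-931-2. The ratio was lower in both TAK-931 libraries, where Tbx21 came close to Eomes, but the vehicle intervals (0.964 to 39.3 and 0.559 to 203) overlapped those of TAK-931 (0.949 to 1.22 and 1.07 to 2.30).

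The fixed list of 15 genes that T-bet and eomesodermin are known to act with was higher in both TAK-931 libraries for all 15 genes (30.0% of all tested genes), and 11 of the 15 had an unadjusted p under 0.05 (11.6%). Their median log2 fold change was 4.46, against 0.02 over all genes, and without TAK-931-1 it was 2.37, with 6 of the 15 at that p. Gzmb, a granule protease of cytotoxic cells, was at 7.47, 1.68, 330 and 29.7 CPM in Vehicle-1, Vehicle-2, TAK-931-1 and TAK-931-2. Ccl5, a chemokine made by activated T and NK cells, was at 10.3, 2.52, 248 and 50.1 CPM. Il2rb, the beta chain of the IL-2 and IL-15 receptors and a direct target of both factors, was at 6.23, 1.20, 261 and 45.0 CPM. NK cells use both factors too, and 3 of 5 tested NK markers of a list of 7 had an unadjusted p under 0.05 (1 without Vehicle-2). The NK markers summed to 17.1 and 7.73 CPM in vehicle and 144 and 52.3 CPM with TAK-931, mostly from Gzma (given next). Klra4 and Klra8 had 0 counts in all 4 libraries and could not be tested, so they do not bear on a difference. Ncr1, an activating receptor of NK cells, was at 2.73, 0.36, 11.3 and 8.69 CPM, the cytotoxic cell protease Gzma at 12.5, 6.89, 114 and 37.2 CPM, and the NK receptor Klre1 at 0.474, 0.12, 8.27 and 2.98 CPM. All 3 were higher in TAK-931-1 than in TAK-931-2, between which Tbx21 differed 9.18-fold (6.67 to 13.0). The part of NK cells in the levels of Tbx21 and Eomes was not tested.

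Gata3, the factor of type 2 helper cells (chr2:9857078-9878600, minus strand), had the fewest counts in vehicle. It had 0 counts in Vehicle-1, which allows up to 0.178 CPM if every count is a separate read, and more if mates were counted separately. It had 2 counts in Vehicle-2 (0.12 CPM), and 216 and 24 counts in the TAK-931 libraries (11.4 and 1.40 CPM). Against the 2 vehicle counts, TAK-931-1 was at 191 times and TAK-931-2 at 23.5 times the level, with 95% intervals of 33.5 to 7610 and 3.48 to 1000. The fitted log2 fold change of 6.58 ± 1.77 (edgeR, unadjusted p = 0.0178) depends on the prior count. It was 5.64 without Vehicle-1, 9.80 without Vehicle-2 and 4.39 without TAK-931-1. Gata3 was thus detected in both TAK-931-treated tumors, at a per-length ratio to Tbx21 of 0.203 and 0.23. These ratios lay inside each other's intervals (0.163 to 0.252 and 0.11 to 0.445).

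Apart from Il4ra, each of the 9 genes listed for type 2 helper cells stayed at or under 7.69 CPM in every library. Of the 9 on the fixed list, 3 were tested, and 1 of these, Il4ra, had an unadjusted p under 0.05 (0 without Vehicle-1 and 2 without TAK-931-2). Il4ra, the receptor chain for IL-4 and IL-13 that many cell types carry, was at 46.4, 59.5, 238 and 129 CPM in Vehicle-1, Vehicle-2, TAK-931-1 and TAK-931-2. Il1rl1, the IL-33 receptor of type 2 cells, mast cells and some Treg, was at 0.712, 0.839, 7.69 and 0.467 CPM. Only TAK-931-1 was above the vehicle libraries for Il1rl1. The cytokine Il13 was at 0 in all 4 libraries. Mast cell and basophil markers, which type 2 genes can follow, summed to 5.34 and 7.19 CPM in vehicle, 57.1 in TAK-931-1 and 8.93 in TAK-931-2, with Mcpt8 at 0 in every library but TAK-931-1, where it had 6 counts. Skin epithelium also uses Gata3, and its keratins Krt5 and Krt14 were at 0 in Vehicle-1 and TAK-931-2, at 10.4 and 19.2 CPM in Vehicle-2 and at 8.64 and 3.79 CPM in TAK-931-1. The part of these cells in Gata3 was not tested.

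With all libraries, Bcl6 and Tcf7 differed the least between the groups, and they were the highest of the 9 genes, per length, in vehicle-treated tumors. Without TAK-931-1, Tox (log2 fold change 1.98) differed less than Tcf7 (2.30). Bcl6, the repressor that directs follicular helper T cells (chr16:23965052-23988612, minus strand), had 76, 46, 654 and 173 counts in Vehicle-1, Vehicle-2, TAK-931-1 and TAK-931-2, or 4.51, 2.76, 34.5 and 10.1 CPM. It was 9.47 times the vehicle level in TAK-931-1 (95% interval 7.19 to 12.7) and 2.78 times in TAK-931-2 (1.98 to 3.92). The log2 fold change was 2.61 ± 0.76 (SE, n = 2 per group, edgeR, unadjusted p = 0.0232), 1.47 without TAK-931-1 and 2.27 without Vehicle-2. Tcf7, the factor of naive and stem-like T cells (chr11:52252604-52282571, minus strand), had 26, 17, 363 and 109 counts, or 1.54, 1.02, 19.1 and 6.36 CPM. The log2 fold change was 3.31 ± 0.77 (edgeR, unadjusted p = 0.0109), and 2.30 without TAK-931-1. Tcf7 had the smallest gap of the 9 genes between the TAK-931 libraries, 3.01-fold (2.21 to 4.15), next to 3.41-fold for Bcl6 (2.69 to 4.38).

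Of 9 genes of follicular helper cells, 6 were tested and 4 had an unadjusted p under 0.05 and were higher (11.6% of all tested genes). Their median log2 fold change was 4.37, and it was 2.03 without TAK-931-1, with 3 genes at that p. Pdcd1, which encodes the inhibitory receptor PD-1, was at 2.96, 2.88, 159 and 14.3 CPM in Vehicle-1, Vehicle-2, TAK-931-1 and TAK-931-2, and Slamf6, a receptor of follicular and stem-like T cells, at 0.83, 1.08, 24.0 and 3.97 CPM. Sh2d1a, the adaptor that SLAM receptors signal through, was at 0.712, 0, 29.1 and 2.10 CPM (edgeR, unadjusted p = 0.052). Il21, the cytokine of these cells, was at 0 in all 4 libraries. B cells use Bcl6 as well. Of 10 B cell markers, 6 were tested and 1 had an unadjusted p under 0.05 (4 without TAK-931-1); the list summed to 206, 248, 137 and 249 CPM in the same order, and Pax5, the factor that defines B cells, was at 0 in all 4 libraries. Macrophage markers, of which 9 of 9 had an unadjusted p under 0.05, were higher in the same libraries as Bcl6, and the part of macrophages and of B cells in Bcl6 was not tested.

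All 12 genes of naive and memory T cells were tested beside Tcf7, and 6 had an unadjusted p under 0.05, none of them lower, with a median log2 fold change of 1.73. Without TAK-931-1 the median was 1.34, with 7 genes higher and 1 lower at that p (18.4% of all genes higher), and without Vehicle-2, where 6.73% of all genes were higher, 3 of the list were. S1pr1, the receptor by which T cells leave tissue, was at 12.9, 10.4, 61.6 and 19.3 CPM in Vehicle-1, Vehicle-2, TAK-931-1 and TAK-931-2. Klf2, the factor that keeps S1pr1 on in resting T cells, was at 45.8, 48.7, 39.4 and 18.8 CPM and thus below vehicle in both (edgeR, unadjusted p = 0.162). Actn1, an actin crosslinker found in many cells, was at 24.6, 34.2, 120 and 37.1 CPM. Endothelial cells also carry S1pr1 and Klf2, and their 7 markers summed to 228, 246, 830 and 242 CPM; the part of endothelial cells in this list was not tested.

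Tox, a nuclear factor of exhausted T cells (chr4:6687386-6990723, minus strand), had the widest gap between the TAK-931 libraries. It had 20, 10, 824 and 61 counts in Vehicle-1, Vehicle-2, TAK-931-1 and TAK-931-2, or 1.19, 0.599, 43.4 and 3.56 CPM. TAK-931-1 was 48.5 times the vehicle level (95% interval 29.1 to 87.5), TAK-931-2 was 3.98 times (2.08 to 7.95), and TAK-931-1 was 12.2 times TAK-931-2 (8.44 to 18.2). The log2 fold change was 4.71 ± 1.42 (edgeR, unadjusted p = 0.0263, adjusted p = 0.275), and 1.98 without TAK-931-1. Without TAK-931-1, the fitted log2 fold change of Tox was the second smallest of the 9, after Bcl6.

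Per length, Tcf7 stood to Tox at 1.66 and 2.17 in the vehicle libraries, 0.561 in TAK-931-1 and 2.28 in TAK-931-2. TAK-931-1 (95% interval 0.469 to 0.67) was apart from TAK-931-2 (1.44 to 3.67), whereas TAK-931-2 lay within the intervals of both vehicle libraries (0.671 to 4.22 and 0.639 to 8.32). The balance of the stem-like factor to the exhaustion factor therefore differed between the TAK-931 tumors beyond counting error. Of 12 exhaustion genes, 11 were tested and 6 had an unadjusted p under 0.05, none of them lower, with a median log2 fold change of 2.35. Without TAK-931-1 the median was 1.11, with 5 genes higher and 1 lower at that p (18.4% of all genes higher), and without Vehicle-2, where 6.73% of all genes were higher, 2 of the list were. Pdcd1, given above, was among the 6. Tigit, another inhibitory receptor, was at 77.6, 59.5, 53.8 and 109 CPM (edgeR, unadjusted p = 0.583), so it was high where Foxp3 and Tox were close to 0, and Entpd1, also on this list, was given above.

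**Figure D2:**
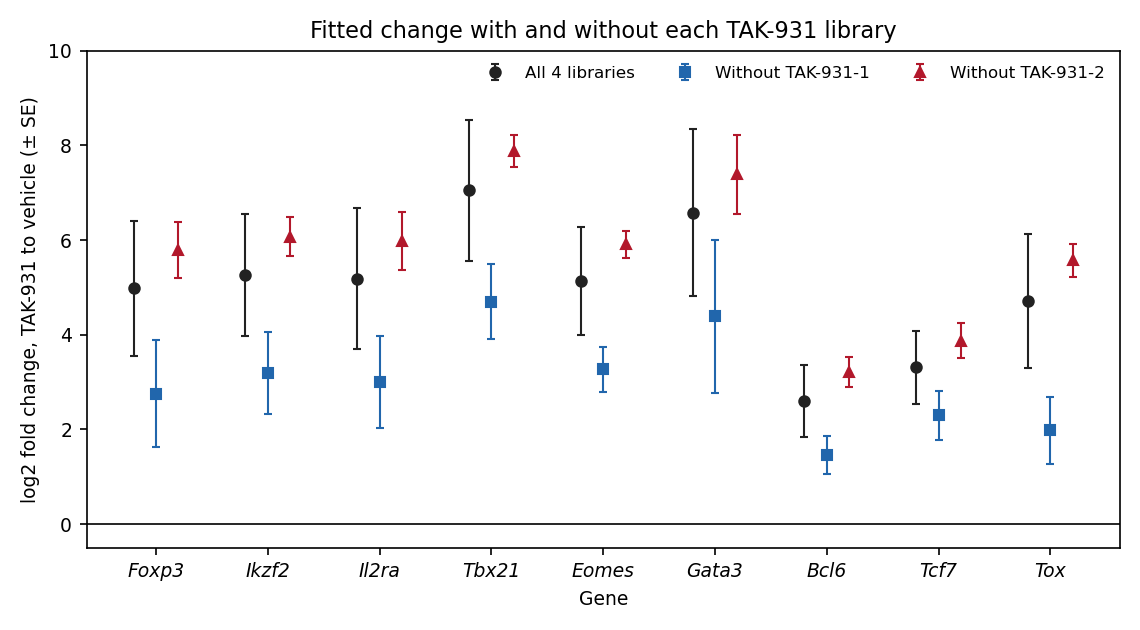
Fitted log2 fold change of TAK-931 to vehicle (edgeR; bars are ± SE) for each gene with all 4 libraries, without TAK-931-1 and without TAK-931-2. All values lie above 0; without TAK-931-1 they run from 1.47 for Bcl6 to 4.70 for Tbx21, and without TAK-931-2 from 3.22 for Bcl6 to 7.88 for Tbx21.

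Without TAK-931-1, 6 of the 9 genes had an edgeR adjusted p under 0.05, where 12.6% of all tested genes were called higher. The 3 that did not were Foxp3, Gata3 and Tox. Without TAK-931-2, all 9 did, where 28.2% of all tested genes were called higher. Each such fit has 1 TAK-931 library, which is assumed to vary as the vehicle pair does, so these p-values carry no spread between TAK-931 tumors. The size of the change in each gene thus rested on which TAK-931 tumor was kept, while the direction did not.

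The order of the 9 genes by level per length changed between the groups. In vehicle, Bcl6 led with a mean RPKM of 1.11 ± 0.377 (SD, n = 2), followed by Tcf7 at 0.572 ± 0.165, Tox at 0.313 ± 0.145 and Eomes at 0.304 ± 0.134. Bcl6 and Tcf7 did not overlap in the vehicle libraries, and neither did Tcf7 and Tox; Tox and Eomes could not be told apart, and the 5 genes from Il2ra at 0.0939 down to Gata3 at 0.0186 each overlapped the next. With TAK-931, Eomes led with a mean RPKM of 10.8 ± 11.1, followed by Tbx21 at 9.66 ± 11, Tox at 8.23 ± 9.88 and Bcl6 at 6.78 ± 5.24, and Ikzf2 was last at 1.5 ± 1.62. Every neighbor in this order overlapped the next when compared across the libraries, since the SDs were about as large as the means. Within each TAK-931 library, the order ended alike, with Il2ra, Foxp3, Gata3 and Ikzf2. Within TAK-931-1 alone the order was led by Eomes (18.7 RPKM), Tbx21 (17.4) and Tox (15.2), and within TAK-931-2 by Bcl6 (3.07 RPKM), Eomes (2.95) and Tcf7 (2.84).

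As a share of the summed RPKM of the 9 genes, Bcl6 made up 41.8% in Vehicle-1 and 44.6% in Vehicle-2, but 12.1% in TAK-931-1 and 21.9% in TAK-931-2. Tbx21 made up 2.83% and 2.50% in vehicle and 20.1% and 13.5% with TAK-931. Eomes made up 12.1% and 11.1% in vehicle and 21.6% and 21.0% with TAK-931. The shares of Foxp3 were 3.22%, 1.62%, 4.55% and 3.39% in the same order, higher with TAK-931 but by less than the spread of the vehicle pair for TAK-931-2. With 2 libraries per group, the exact permutation test, two-sided, cannot give a p below 0.333, which each of these 4 genes had. Tox made up 12.7%, 11.2%, 17.6% and 8.89%, with overlapping groups (exact permutation p = 1.0). The summed level itself was 3.29, 1.88, 86.7 and 14.0 RPKM.

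**Figure D3:**
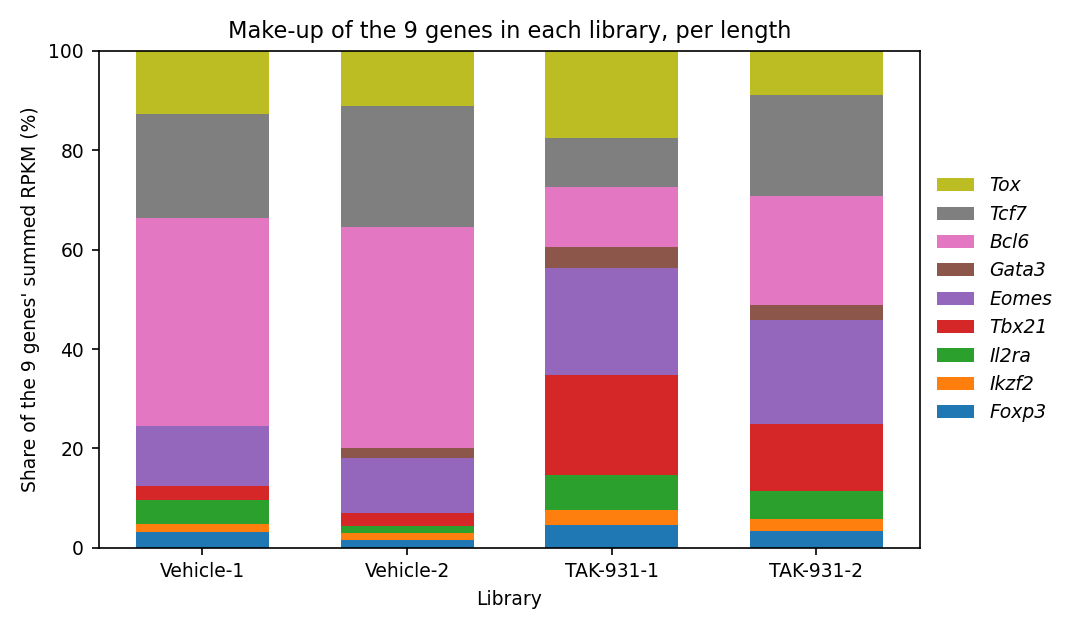
Stacked shares of the 9 genes in their summed RPKM in each library, in percent. Bcl6 fills 41.8% and 44.6% of the vehicle bars and 12.1% and 21.9% of the TAK-931 bars, while Tbx21 goes from 2.83% and 2.50% to 20.1% and 13.5%.

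To set the fate factors against the T cell content of each tumor, their counts were divided by the summed counts of Cd3d, Cd3e and Cd3g, which were 88, 28, 8370 and 427 in Vehicle-1, Vehicle-2, TAK-931-1 and TAK-931-2. Per 100 CD3 counts there were 7.95, 7.14, 3.51 and 7.49 of Foxp3. The vehicle values and TAK-931-2 lay close together, and TAK-931-1 was lowest. The vehicle values rest on 7 and 2 counts of Foxp3, too few to place its level per CD3 count. Tbx21, at 4.55, 7.14, 10.1 and 19.4, had both TAK-931 values above both vehicle values, but no longer once 1 count was added to each sum. Eomes had 28.4, 46.4, 15.8 and 44.0 per 100 CD3 counts, with overlapping groups.

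Per CD3 count, with 1 count added to each sum, 4 of the 9 genes (Foxp3, Bcl6, Tcf7 and Tox) were lower in both TAK-931 libraries than in both vehicle libraries, and the other 5 overlapped between the groups. For Foxp3 this rested on the added count, since without it the value of TAK-931-2 lay between those of the vehicle libraries. Among all tested genes, 96.6% were lower in both, as the CD3 sum itself was higher in both TAK-931 libraries. Bcl6 went from 86.4 and 164 per 100 CD3 counts in vehicle to 7.81 in TAK-931-1 and 40.5 in TAK-931-2. Tcf7 went from 29.5 and 60.7 to 4.34 and 25.5, and Tox from 22.7 and 35.7 to 9.84 and 14.3. On the log2 scale with 1 added count, the difference was -2.73 for Bcl6, -2.04 for Tcf7, -1.32 for Tox and -0.89 for Foxp3 (exact permutation p = 0.333 for each, the smallest that 2 against 2 allows). All 9 genes were lower per CD3 count in TAK-931-1 than in TAK-931-2, as 99.0% of all tested genes were, and 7 of the 9 were lowest of all in TAK-931-1, as 98.7% were. Which genes were lower depended on the reference: it was 2 of 9 (Bcl6 and Tox) against Cd3e alone, and 0 of 9 against Cd4 alone or against a wide list of 12 T cell genes, in which Cd28 was already at 37.5 and 38.2 CPM in vehicle. It was 7 of 9 without Vehicle-1 or without TAK-931-2.

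**Figure D4:**
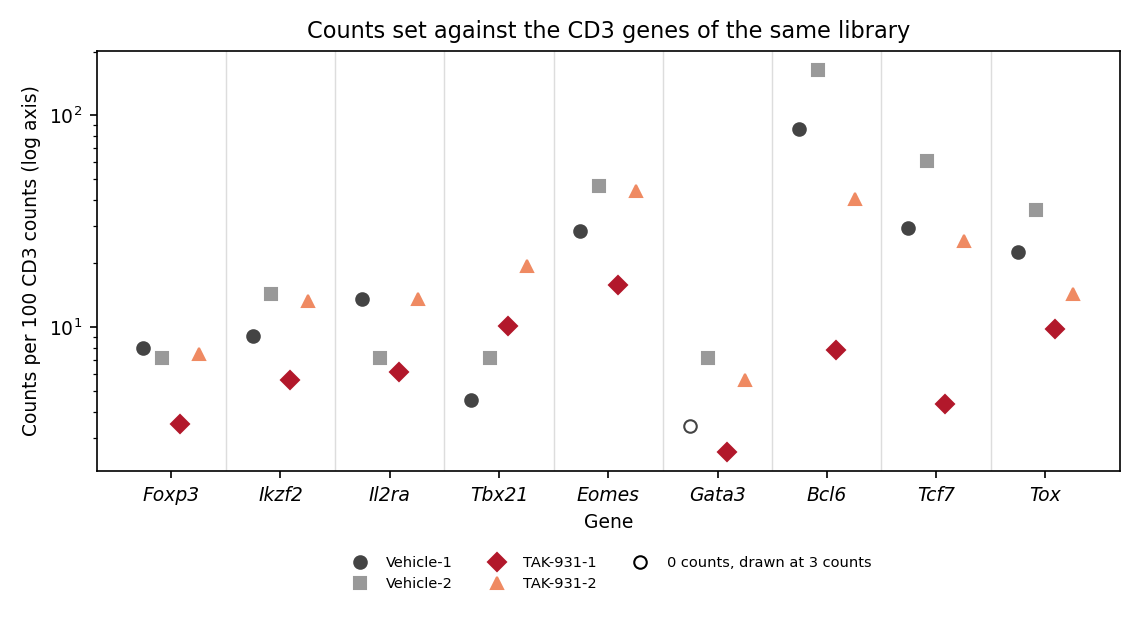
Counts of each gene per 100 counts of Cd3d, Cd3e and Cd3g in the same library, on a log axis, 1 point per library; the open circle is 0 counts of Gata3 drawn at 3 counts. Bcl6 falls from 86.4 and 164 in vehicle to 7.81 and 40.5 with TAK-931, whereas Tbx21 lies at 4.55 and 7.14 in vehicle and 10.1 and 19.4 with TAK-931.

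Among the fate factors of T cells that are not in this set of 9, a fixed list of 33, 32 were tested, 16 had an unadjusted p under 0.05 and were higher, and none was lower at that p. Their median log2 fold change was 1.26, against 5.14 for the 9 and 0.02 for all tested genes. Of the 9, 5 passed the filter only through the TAK-931 libraries, so the median of the 9 is partly set by that filter. Without TAK-931-1 the medians were 0.63 for the list and 3.0 for the 9, with 17 genes of the list higher and 2 lower at an unadjusted p under 0.05. Beside these counts, 11.6% of all genes were higher with all libraries and 18.4% without TAK-931-1, and without Vehicle-2 it was 10 of the list and 6.73% of all genes. By mean CPM over the 4 libraries, Irf4, Ikzf1 and Prdm1 were the most abundant of the list. Irf4, which drives both plasma cells and activated T cells, was at 737, 762, 298 and 1670 CPM in Vehicle-1, Vehicle-2, TAK-931-1 and TAK-931-2. Prdm1 (Blimp-1), the factor of plasma cells and terminal effector T cells, was at 172, 166, 89.6 and 222 CPM, and Ikzf1 (Ikaros), common to lymphocytes, at 224, 233, 249 and 250 CPM. Irf4 and Prdm1 were lowest in TAK-931-1, where the 9 genes were highest.

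Genes whose pattern over the 4 libraries was among those most like that of 4 of the factors were found among 9620 tested genes, by the root mean square (RMS) difference of centered log2 CPM. For Foxp3 they were Lag3 (RMS 0.17), an inhibitory receptor of activated T cells, and Gm21188 (0.19). For Tbx21 they were Gimap3 (0.56), a lymphocyte GTPase, Pstpip1 (0.62) and Il2rb (0.68), and for Gata3 they were Pstpip1 (0.30), Mertk (0.41), a receptor by which macrophages take up dying cells, and Pdcd1 (0.55). For Bcl6 they were Herc6 (0.04), an interferon-induced gene, and Ly6c1 (0.07), a surface protein of monocytes, T cells and endothelium. Among the 9 themselves, Ikzf2 and Eomes were the most alike pair (0.13), and Tbx21 and Bcl6 the least (1.74). The libraries are few and share the gap between TAK-931-1 and the rest, so a small RMS describes a shared pattern over 4 values.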

How the data were processed

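Bulk RNA-seq of J558 allografts (4 libraries, 2 per group by the labels) was used as read counts per gene, which the authors deposited with an exon length for each gene. The submitters' processing notes name STAR 2.6.1c, featureCounts and mm10. The strand setting and annotation release are not given in the sources used here, and the counts were not normalized. Total counts of 16487902 to 19589339 set the precision. A value of 0 counts allows up to 3 if every count is a separate read, and more if mates were counted separately.

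Genes were filtered with filterByExpr (minimum count of 10), leaving 13669 of 24421, scaled by TMM and tested with edgeR 4.0.16 (R 4.3.3; robust quasi-likelihood, treatment only, two-sided, Benjamini-Hochberg). RPKM used the deposited exon lengths. The code was tested on simulated data. Alternatives were DESeq2 1.42.0, limma-voom 3.58.1, other filters and scalings, other T cell references, a replicate block and leaving out each library. Intervals are exact binomial, at 95%, on counts divided by 2.

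The members and gene lists were chosen with earlier results of these data known. All 9 genes were described, with the 3 most abundant genes of each list, or 3 genes most alike in pattern with a mean log2 CPM over 3; the other genes named are markers, list genes at 0 or genes with overlapping exons. Some genes that this rule would name are not reported here. The labels do not name separate cultures or litters, so p-values measure only the spread between these samples.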

Additional observations from a re-analysis of the deposited data

How the results depend on the processing

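The 9 genes stayed above the vehicle libraries under the other scalings. Leaving out a library could not change that count, since the groups did not overlap with all 4 libraries. All 112 of their fold changes under alternatives were positive. With the main filter, 5 of the 9 genes were tested only through the TAK-931 libraries, so a positive sign was to be found for these. The number of genes called at an adjusted p under 0.05, 0 with edgeR, was 1411 with DESeq2, and between 0 and 8424 when 1 library was left out (3996 without TAK-931-1 and 8424 without TAK-931-2); counts at an unadjusted p under 0.05 ran from 1003 to 9156. Of the 9 genes, those with an unadjusted p under 0.05 numbered 1 with limma-voom, 4 of the 4 still tested when 10 counts were asked of every library (fewer genes enter that fit), and 8 to 9 when 1 library was left out. The count lower per CD3 count, 4, was 2 against Cd3e alone, 0 against Cd4 alone and 0 against the wide T cell reference, and 4 to 7 when 1 library was left out. Beyond the smaller sets of genes or samples, the cause of these shifts was not tested. With the replicate number as a block, 144 genes were called, 141 of them higher (1.03% of tested genes), and 3 of the 9: Il2ra (adjusted p = 0.0492), Tbx21 (0.0345) and Eomes (0.0345). The numbers are not shown to pair the samples, since the deviations of same-numbered libraries had a correlation of 0.00409. Depth limits Foxp3, Ikzf2, Il2ra, Tbx21 and Gata3 in vehicle, where each had 12 counts or fewer in a library.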

Other observations

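Other cell types of the host also differed between the libraries in which the fate factors differed. Fibroblast markers (collagens and related genes) were higher at an unadjusted p under 0.05 (edgeR) for 6 of 7 genes and summed to 1900 and 2170 CPM in vehicle, 15100 in TAK-931-1 and 5220 in TAK-931-2. Dendritic cell markers were higher at that p for 3 of 8 genes and summed to 29.3, 24.2, 306 and 66.7 CPM in Vehicle-1, Vehicle-2, TAK-931-1 and TAK-931-2. Endothelial markers were higher for 2 of 7, and mast cell and basophil markers for 1 of 5 tested. When 1 library was left out, these numbers ran from 5 to 7 for fibroblast, from 1 (without Vehicle-2) to 6 (without TAK-931-2) for dendritic cell, from 1 (without either vehicle library) to 7 (without TAK-931-2) for endothelial, and from 0 (without Vehicle-1) to 5 (without TAK-931-2) for mast cell and basophil markers. The share of all genes higher at that p moved too, from 6.70% without Vehicle-1 and 6.73% without Vehicle-2 to 31.1% without TAK-931-2, and without TAK-931-1 (18.4%) 2 endothelial markers were lower. Of the keratinocyte markers, 0 of 5 tested were higher at that p. Their sums, 53.9, 85.9, 39.0 and 45.6 CPM, were mostly Dsp, a junction protein of many cells (51.6, 47.0, 20.4 and 43.5 CPM), whereas the skin keratins Krt5 and Krt14 had counts in Vehicle-2 and TAK-931-1 and none in the others. No plasmacytoma marker of 8 had an unadjusted p under 0.05 with all libraries, whereas 4 were higher and 1 lower without TAK-931-1 and 8 were lower without TAK-931-2, and their sums were 9720, 10300, 4800 and 13600 CPM. TAK-931-1 therefore held the most stromal and myeloid RNA and the least plasmacytoma marker RNA of the 4 libraries, and the part of these cells in the levels of the 9 genes was not tested.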
